A study of Mus musculus with 6 samples.

Results

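Costimulatory and checkpoint genes were followed in lung group 2 innate lymphoid cells (ILC2s) from WT and SIRPα KO mice. The 10 genes, of 17831 in the deposited count table, were taken by name: Icos, Icosl, Pdcd1, Cd274, Ctla4, Cd28, Tigit, Cd96, Cd200r1 and Havcr2. WT mice carry the genotype label CB57BL/6 and SIRPα KO mice the label SIRPalphatm1Ynliu/J, a targeted allele at the gene of the inhibitory receptor for CD47. All mice received recombinant IL-33 through the nose. Lung ILC2s, gated as CD45+, lineage-, CD127+ and ST2+ cells, were then cultured with IL-2 and IL-7, so both groups were IL-33 experienced and cytokine exposed. Each group had 3 bulk RNAseq libraries, made from 10 pg of RNA each, and the libraries held 13980491 to 19051504 reads. WT replicates 1 and 2 share the label code 37, and SIRPα KO replicates 2 and 3 share the code 44, with a suffix V1 on the second of each pair. The titles number 3 libraries in each group while the design text speaks of duplicates, so a V1 library may repeat a sample, which would leave 2 samples in each group. Whether libraries came from separate mice or pools is not stated in the sources used here, so the p-values measure the spread between these libraries, which may be technical.

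ILC2s lack antigen receptors and are tuned by cytokines, by lipid mediators and by contact receptors. Costimulatory receptors of the CD28 family (ICOS, CD28) pass activating signals to the PI3K pathway, whereas checkpoint receptors such as PD-1 and CTLA-4 restrain activation, through phosphatases or by competing for ligand. ILC2s are known to carry ICOS together with its ligand, so that neighbouring ILC2s can engage each other, and PD-1 is known to limit their cytokine output. TIGIT, CD96 and the activating receptor CD226 compete for PVR and related nectins. TIM-3, the product of Havcr2, and CD200R1 are inhibitory receptors.

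The labels were checked first. Sirpa was measured at 8.57, 6.83 and 4.83 CPM (read counts per library size, after scaling by TMM factors) in WT libraries and at 3.07, 4.46 and 1.74 CPM in SIRPα KO libraries. All 3 SIRPα KO values lay under the lowest WT value, but the difference was not called (log2 fold change -1.12 ± 0.42 SE, adjusted p = 0.115, edgeR), and the reads that remain were not assigned to the targeted or untargeted part of the gene. Cd47, the gene of the SIRPα ligand, fell (-0.68 ± 0.12, adjusted p = 0.0184), a call lost without any 1 of the SIRPα KO libraries (adjusted p = 0.0950 to 0.122) and with libraries of a shared label code summed (adjusted p = 0.134). With a correction for transcript length and GC, Cd47 was at -1.21 (adjusted p = 0.0194).

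Cell type markers moved with genotype as well, and their part in the results below was not tested. The ILC2 markers were abundant in every library, with Gata3 at 846 CPM or more, and the summed level of 12 markers was 13856 to 15254 CPM in WT and 20288 to 20837 CPM in SIRPα KO libraries. Of these, Il2ra, Il5 and Ptprc rose and Thy1 fell. Of the 8 T cell markers in the table, 4 were tested and 3 fell (Cd3g, Trbc1 and Trbc2), while Cd3e was not called (log2 fold change -0.33, edgeR adjusted p = 0.780). The summed level of the 8 went from 205 to 274 CPM in WT to 124 to 132 CPM in SIRPα KO. Cd4 was at 0 in all WT libraries and had 0, 11 and 0 reads in SIRPα KO libraries. Of 6 B cell markers, all tested, 5 fell (216 to 479 CPM summed, against 23.1 to 84.6). Of 6 NK and ILC1 markers, 5 were tested and 3 fell (14.5 to 25.9 CPM summed, against 1.79 to 3.73). Among 12 myeloid markers 8 were tested and Itgam rose. The 12 summed to 48.1, 47.5 and 134 CPM in WT and 88.9, 132 and 115 CPM in SIRPα KO libraries. The groups overlapped only through WT replicate 3, in which Lyz2 held 82.1 of the 134 CPM. WT replicates 1 and 2 lay below every SIRPα KO library. The part of these markers in the Havcr2 and Cd86 values was not tested. Fcgr1, C1qa, C1qb and Flt3 were below the filter, with 0 reads in every WT library and at most 12 in a SIRPα KO library. Of 7 mast cell, basophil and eosinophil markers (7.59 to 21.9 against 1.55 to 29.3 CPM summed), only 2 passed the filter on low counts. From this list edgeR and DESeq2 called 0, and 1 had an unadjusted edgeR p under 0.05. The 29.3 CPM came from SIRPα KO replicate 1 alone, with 151 reads of Epx and 145 of Prg2. Epx had 0 reads in every other library, and Prg2 at most 17. Of 4 lung structural markers, 3 were tested, and Epcam fell and Pecam1 rose (25.9 to 51.5 against 46.7 to 54.4 CPM summed).

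One library stood apart: WT replicate 3. The median chi-square between libraries over genes with at least 40 reads in a pair was 18.8 and 17.6 from WT replicate 3 to WT replicates 1 and 2, against 6.32 between those 2 libraries and 2.79 to 3.21 among the SIRPα KO libraries. No 2 libraries differed by as little as sampling noise, and all 6 were kept. Between replicates, genes varied more in WT (38.0% biological coefficient of variation) than in SIRPα KO (15.2%). Fold changes also followed transcript length. Over well-expressed genes (mean log2 CPM of 3 or more), the median log2 fold change of a length decile ran from -0.55 for the shortest transcripts to 0.47 for the longest. Results are therefore given with all libraries, without WT replicate 3, and with a correction for both length and GC content.

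Across 13623 genes tested, 1600 had an adjusted p under 0.05, which is 11.7% (5.94% higher and 5.81% lower in SIRPα KO). All 10 costimulatory and checkpoint genes passed the filter on low counts, and 1 of the 10, Havcr2, was called. Of the 10, 4 had a positive and 6 a negative log2 fold change, with a median of -0.24, beside -0.03 over all genes tested. For 5 of the 10 the groups were separate, against 42.8% of all genes tested. Icos, Icosl and Pdcd1 were lower in every SIRPα KO library than in any WT library, and Havcr2 and Tigit were higher. As in any bulk sample, fewer cells carrying a transcript and less transcript per cell cannot be told apart.

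RefSeq promoters were at hand for 7 of the 10 genes, and those of Havcr2, Tigit and Pdcd1, whose groups were separate, are shown as the sequence in front of these transcripts. The Icosl window (chr10:78069118-78069367) runs into the gene as GENCODE annotates it and is not printed. Each line holds the 250 bases before the start site (GRCm38.p6), written 5′ to 3′ on the strand of the gene. Capitals mark matches to any of 4 motifs, searched on both strands. IL-33 acts through AP-1, searched as TGANTCA, and through NF-κB, searched as GGGANTTCC. IL-2 and IL-7 act through STAT factors, whose motif was TTCNNNGAA. GATA3 is the master factor of ILC2s, and the GATA motif was AGATAA. The windows are chr11:46454681-46454930 (+) for Havcr2, chr16:43664185-43664434 (-) for Tigit and chr1:94052554-94052803 (-) for Pdcd1.
Havcr2: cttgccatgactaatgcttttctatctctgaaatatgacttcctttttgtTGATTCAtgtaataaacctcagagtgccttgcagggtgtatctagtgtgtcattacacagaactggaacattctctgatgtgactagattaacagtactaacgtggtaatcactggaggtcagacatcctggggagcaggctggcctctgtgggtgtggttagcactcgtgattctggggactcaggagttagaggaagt
Tigit: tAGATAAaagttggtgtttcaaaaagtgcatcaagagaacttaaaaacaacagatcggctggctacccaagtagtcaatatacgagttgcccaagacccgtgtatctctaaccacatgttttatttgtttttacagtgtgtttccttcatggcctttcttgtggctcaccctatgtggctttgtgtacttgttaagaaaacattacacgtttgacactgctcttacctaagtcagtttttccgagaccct
Pdcd1: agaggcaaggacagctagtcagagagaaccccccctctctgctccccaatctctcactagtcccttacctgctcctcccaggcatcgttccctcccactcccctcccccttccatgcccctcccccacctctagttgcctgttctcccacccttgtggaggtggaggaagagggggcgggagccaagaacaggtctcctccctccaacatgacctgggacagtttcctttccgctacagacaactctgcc
The Havcr2 window held 1 AP-1 match, from base -200 to base -194 before the start site, and the Tigit window 1 GATA match, from -249 to -244. The Pdcd1 and Icosl windows held none of the 4 motifs. Elsewhere among the 7, the Cd274 window held 2 GATA matches and the Cd96 window 1 STAT match, and the Ctla4 window held none. The Ctla4 window (chr1:60908775-60909024) lies inside the gene as GENCODE annotates it, and the Cd96 window just reaches into its gene. Of 27025 promoters of the same length, 6.87% held the AP-1 letters, 10.3% the GATA letters, 7.18% the STAT letters and 1.42% the NF-κB letters. GC content was highest in the Icosl window, at 68.8%, against 44.8% in that of Havcr2. Only these letters were searched, so other forms of a site were not counted, and a window without a match may still hold them. The Havcr2 match has T at the open base N of the AP-1 letters. A match describes the letters of the window and is not evidence of binding.

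Havcr2 rose. TIM-3, its product, is an inhibitory receptor that binds galectin-9, CEACAM1 and HMGB1. Havcr2 (ENSMUSG00000020399.14, chromosome 11, 46454935 to 46481255, plus strand) was measured at 23.1, 19.8 and 16.2 CPM in WT libraries. In SIRPα KO libraries it stood at 36.0, 35.8 and 30.8 CPM. The lowest SIRPα KO library was above the highest WT library, and group means were 19.7 ± 3.45 and 34.2 ± 2.96 CPM (SD, n = 3 each). The fold was 1.74 (log2 fold change 0.80 ± 0.19 SE, adjusted p = 0.0370, edgeR), and these values rested on 244 to 682 reads per library. Without WT replicate 3 the log2 fold change was 0.68 (adjusted p = 0.0264) and with the length and GC correction 0.65 (adjusted p = 0.0487). The call was lost without any one of the SIRPα KO libraries (adjusted p = 0.160, 0.159 and 0.110 without replicates 1, 2 and 3) and when libraries sharing a label code were summed (0.89, adjusted p = 0.141). Taken alone in an exact permutation test, the 3 against 3 design gave p = 0.1, the smallest it allows (two-sided).

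Ratios between genes of the same library do not depend on the scaling of libraries. For each 100 CPM of Pdcd1, WT libraries held 5.66, 4.65 and 3.82 CPM of Havcr2, and SIRPα KO libraries held 10.1, 10.2 and 8.81 CPM. The mean ratio was 2.06 times as high in SIRPα KO. It could not overlap, since Havcr2 was higher and Pdcd1 lower in every SIRPα KO library than in any WT library. Its exact permutation p (0.1, two-sided, the smallest possible) was therefore fixed in advance and lends no support. The Pdcd1 difference that enters the ratio was gone with the length and GC correction (log2 fold change 0.01). This ratio was chosen after the values were seen. The galectin-9 gene Lgals9, which encodes a TIM-3 ligand, stood at 216 to 257 CPM in WT and 217 to 229 CPM in SIRPα KO libraries, and its log2 fold change was -0.08 ± 0.11 (adjusted p = 0.645).

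**Figure D1:**
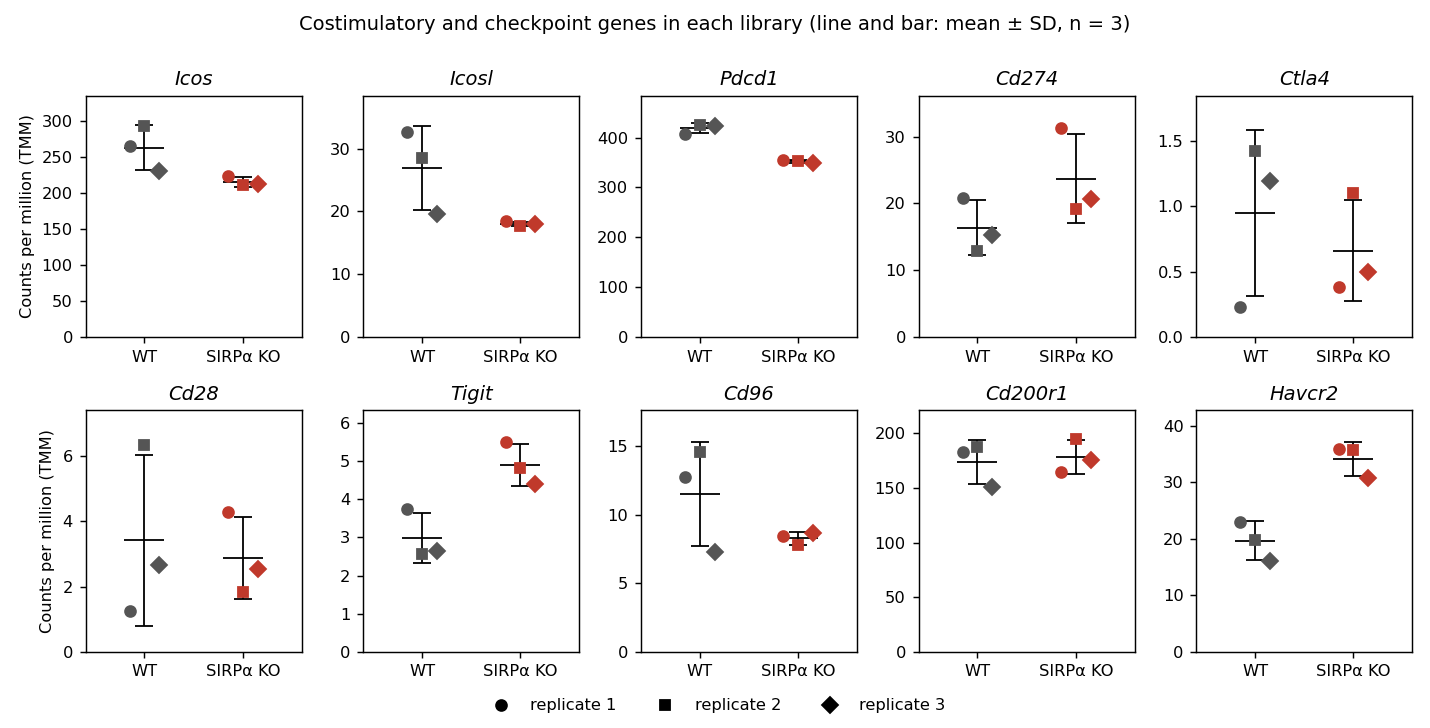
TMM-scaled CPM (y axis from 0) of each of the 10 genes in the 3 WT (grey) and 3 SIRPα KO (red) libraries, with replicates as symbols and mean ± SD as line and bar. The Havcr2 and Tigit points of SIRPα KO lie above all WT points, those of Icos, Icosl and Pdcd1 lie below, and the other 5 genes overlap.

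ICOS is the costimulatory receptor that ILC2s use for survival and cytokine production, and ICOSL is its ligand. Icos (ENSMUSG00000026009.14, chromosome 1, 60977927 to 61000320, plus strand) stood at 266, 294 and 230 CPM in WT and at 223, 211 and 212 CPM in SIRPα KO libraries. Group means were 263 ± 31.9 and 215 ± 6.72 CPM. The groups were separate, but the distance from the lowest WT library to the highest SIRPα KO library was smaller than the range within WT. The log2 fold change of -0.29 ± 0.12 was not called with all libraries (adjusted p = 0.140). It was called without WT replicate 3 (-0.37, adjusted p = 0.0176) and with the length and GC correction (-0.55, adjusted p = 0.0118).

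Icosl (ENSMUSG00000000732.9, chromosome 10, 78069302 to 78083913, plus strand) had a lower level and the same direction. It was measured at 32.6, 28.5 and 19.6 CPM in WT and 18.4, 17.7 and 17.9 CPM in SIRPα KO libraries. The SIRPα KO libraries lay close together, while WT replicate 3 was nearer to them than to the other WT libraries. The log2 fold change was -0.58 ± 0.22 (adjusted p = 0.116) with all libraries and -0.76 (adjusted p = 0.0153) without WT replicate 3. With the length and GC correction it was -0.56 (adjusted p = 0.117). Per 100 CPM of Icos there were 12.3, 9.71 and 8.52 CPM of Icosl in WT and 8.25, 8.39 and 8.44 CPM in SIRPα KO libraries. WT replicate 3 was close to the SIRPα KO libraries in this ratio. The summed B cell markers stood at 479, 475 and 216 CPM in WT and 23.1, 84.6 and 82.1 CPM in SIRPα KO libraries. Their part in the Icosl values was not tested.

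PD-1, encoded by Pdcd1, is the checkpoint receptor best known on ILC2s, and PD-L1, encoded by Cd274, is one of its ligands. Pdcd1 (ENSMUSG00000026285.7, chromosome 1, 94038305 to 94052553, minus strand) was the most abundant of the 10 genes. WT libraries had 407, 426 and 423 CPM and SIRPα KO libraries 356, 352 and 349 CPM. Both groups were tight (418 ± 9.86 and 352 ± 3.32 CPM) and did not overlap. The log2 fold change of -0.25 ± 0.09 had an adjusted p of 0.102 in edgeR. DESeq2 called it (-0.22, adjusted p = 0.0354), as did edgeR without WT replicate 3 (-0.23, adjusted p = 0.0327). With the length and GC correction the difference was gone, at 0.01 (adjusted p = 0.954). The longest Pdcd1 transcript, 1930 bases, falls in length decile 3, whose median log2 fold change was -0.11. That is smaller in size than the -0.25 of Pdcd1. The correction joined length and GC, and the part of each was not tested.

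Cd274 (ENSMUSG00000016496.7, chromosome 19, 29367455 to 29388095, plus strand) leaned the other way without being called. It was measured at 20.9, 12.9 and 15.3 CPM in WT and 31.3, 19.1 and 20.7 CPM in SIRPα KO libraries, and the groups overlapped between 19.1 and 20.9 CPM. Its log2 fold change was 0.53 ± 0.27 (adjusted p = 0.213), 0.49 without WT replicate 3 (adjusted p = 0.295) and 0.25 with the length and GC correction (adjusted p = 0.593). Pdcd1lg2, which encodes the other PD-1 ligand, stood at 12.9 to 15.1 CPM in WT and 15.6 to 17.2 CPM in SIRPα KO libraries (0.20 ± 0.18, adjusted p = 0.482).

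CD28 and CTLA-4 share the ligands CD80 and CD86, the first as an activating and the second as an inhibitory receptor. Their genes and Icos form a cluster on chromosome 1, with Cd28 at 60716800 to 60773359 and Ctla4 at 60887000 to 60915832, both on the plus strand. Both were at far lower levels than Icos. Cd28 had 22, 89 and 40 reads in WT and 67, 35 and 41 reads in SIRPα KO libraries (log2 fold change -0.24 ± 0.63, adjusted p = 0.818). Ctla4 had 4, 20 and 18 reads in WT and 6, 21 and 8 reads in SIRPα KO libraries (-0.50 ± 0.79, adjusted p = 0.695). The groups overlapped for both, and with SEs of this size a difference like that of Havcr2 could not be resolved. Without WT replicate 2, which had the most Cd28 reads, the Cd28 value turned to 0.55 (adjusted p = 0.530). Ctla4 overlaps the pseudogene Rpl18-ps1 on the same strand, which had up to 280 reads in a library, so its few reads are uncertain. Among the ligands, Cd80 had 58, 29 and 27 reads in WT and 13, 23 and 22 reads in SIRPα KO libraries, with the groups separate (-1.07 ± 0.49, adjusted p = 0.172). Cd86 had 0 reads in every WT library and 9, 13 and 10 reads in SIRPα KO libraries, below the filter.

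TIGIT and CD96 bind PVR, and CD226 is their activating counterpart. Tigit (ENSMUSG00000071552.5, chromosome 16, 43648867 to 43664146, minus strand) stood at 3.74, 2.56 and 2.65 CPM in WT and 5.50, 4.83 and 4.40 CPM in SIRPα KO libraries. These are 36 to 65 and 71 to 92 reads, and the groups did not overlap. The log2 fold change was 0.72 ± 0.33 (adjusted p = 0.180), and it was 0.64 without WT replicate 3 (adjusted p = 0.193). Tigit has the shortest transcript of the 10 (919 bases, in the shortest decile, whose median was -0.55), and with the length and GC correction its log2 fold change was 1.19 (adjusted p = 0.0805).

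Cd96 (ENSMUSG00000022657.9, chromosome 16, 46035657 to 46120251, minus strand) was measured at 12.8, 14.6 and 7.28 CPM in WT and 8.44, 7.77 and 8.68 CPM in SIRPα KO libraries. WT replicates 1 and 2 lay above every SIRPα KO library and WT replicate 3 below every one. The log2 fold change was -0.48 ± 0.29 (adjusted p = 0.296) with all libraries and -0.71 (adjusted p = 0.0416) without WT replicate 3. Without WT replicate 2 it was -0.27 (adjusted p = 0.549), and with the length and GC correction -0.53 (adjusted p = 0.273). Cd226 stood at 86.0, 108 and 97.2 CPM in WT and 122, 116 and 119 CPM in SIRPα KO libraries (0.30 ± 0.12, adjusted p = 0.147). For each 100 CPM of Cd226 there were 14.8, 13.5 and 7.49 CPM of Cd96 in WT and 6.89, 6.72 and 7.28 CPM in SIRPα KO libraries. The separation again narrowed to 7.49 against 7.28 in WT replicate 3 (exact permutation p = 0.1, two-sided, the smallest possible). Per 100 CPM of Cd226, Tigit stood at 4.35, 2.38 and 2.72 CPM in WT and 4.49, 4.18 and 3.69 CPM in SIRPα KO libraries. On this scale the Tigit groups overlapped (exact permutation p = 0.3, two-sided). Neither Cd226 ratio was corrected for length, so the trend with transcript length can enter both. The longest transcript has 919 bases for Tigit, 2184 for Cd96 and 4494 for Cd226. The part of length in these ratios was not tested.

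CD200R1 is an inhibitory receptor for CD200 that signals through the adaptor Dok2. Cd200r1 (ENSMUSG00000022667.18, chromosome 16, 44765736 to 44794978, plus strand) stood at 183, 188 and 150 CPM in WT and 165, 195 and 175 CPM in SIRPα KO libraries. The groups overlapped, with means of 174 ± 20.3 and 178 ± 15.3 CPM. Its log2 fold change was 0.04 ± 0.13 (adjusted p = 0.859), and it was -0.05 without WT replicate 3 and -0.17 with the length and GC correction. Dok2 itself fell. It was measured at 322, 249 and 295 CPM in WT and 156, 178 and 155 CPM in SIRPα KO libraries, without overlap (log2 fold change -0.82 ± 0.13, adjusted p = 0.0149). With the length and GC correction Dok2 was at -0.45 (adjusted p = 0.0522), and its call also needed all 3 SIRPα KO libraries (adjusted p = 0.0879 to 0.107 without 1 of them). Dok2 overlaps Xpo7 on the opposite strand, and whether strand was used in counting is not stated in the sources used here.

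**Figure D2:**
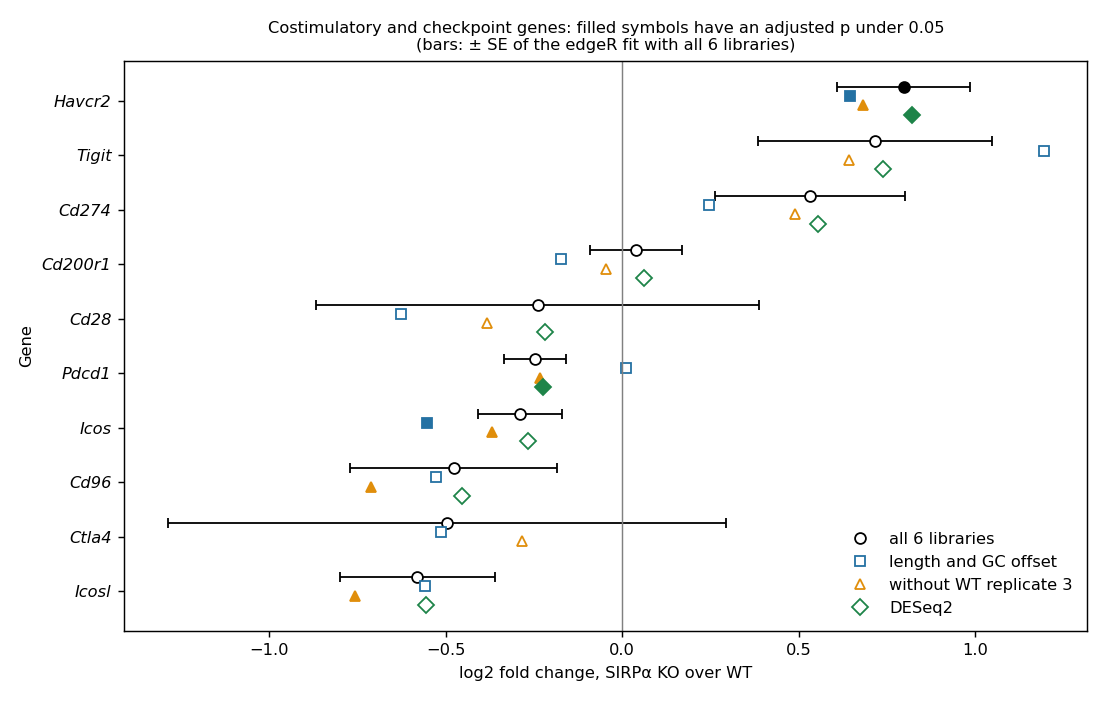
Log2 fold change, SIRPα KO over WT (x axis), of each of the 10 genes with all 6 libraries (edgeR, bars ± SE), with the length and GC correction, without WT replicate 3 and by DESeq2. Filled symbols have an adjusted p under 0.05, and Havcr2 is filled in all 4, while Pdcd1 moves to 0.01 with the correction. Settings in which the Havcr2 call was lost, such as leaving out a SIRPα KO library, are not plotted.

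The setting changed which of the 10 genes were called. Without WT replicate 3, 5 of the 10 were called (Icos, Icosl, Pdcd1 and Cd96 lower, Havcr2 higher), beside 18.4% of the genes tested in that fit. With the length and GC correction 2 were called (Icos lower, Havcr2 higher), beside 8.85%. DESeq2 called Pdcd1 lower and Havcr2 higher, beside 26.9% of genes with an adjusted p, and gave none for Ctla4. Of the 10 genes, only Havcr2 was called in each of these 3 fits and in the fit with all libraries. Other settings lost its call, among them leaving out any 1 SIRPα KO library (edgeR adjusted p = 0.110 to 0.160). Summing libraries of a shared label code lost it too (edgeR adjusted p = 0.141).

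Levels were compared per kilobase of the longest transcript. In WT the order of mean CPM per kb was Pdcd1 (217), Icos (81.2), Cd200r1 (62.8), Icosl (9.56), Havcr2 (7.23), Cd96 (5.28), Cd274 (4.52), Tigit (3.24), Cd28 (0.785) and Ctla4 (0.490). In WT the ranges of neighbours were separate between Pdcd1 and Icos, Icos and Cd200r1, Cd200r1 and Icosl, and Tigit and Cd28, and they overlapped for every other neighbouring pair. In SIRPα KO, Havcr2 was at 12.6 ± 1.09 CPM per kb and Icosl at 6.40 ± 0.131, with separate ranges, where in WT their ranges overlapped. Also in SIRPα KO, Cd274 (6.54) and Tigit (5.34) lay above Cd96 (3.80), and Icos (66.5) overlapped Cd200r1 (64.5). On the scale of plain CPM, Pdcd1, Icos and Cd200r1 together held 90.1% to 92.5% of the summed level of the 10 genes in WT and 87.7% to 89.6% in SIRPα KO libraries. The summed level itself was 868 to 993 CPM in WT and 823 to 848 CPM in SIRPα KO. Havcr2 held 1.86% to 2.43% of that sum in WT and 3.74% to 4.24% in SIRPα KO.

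**Figure D3:**
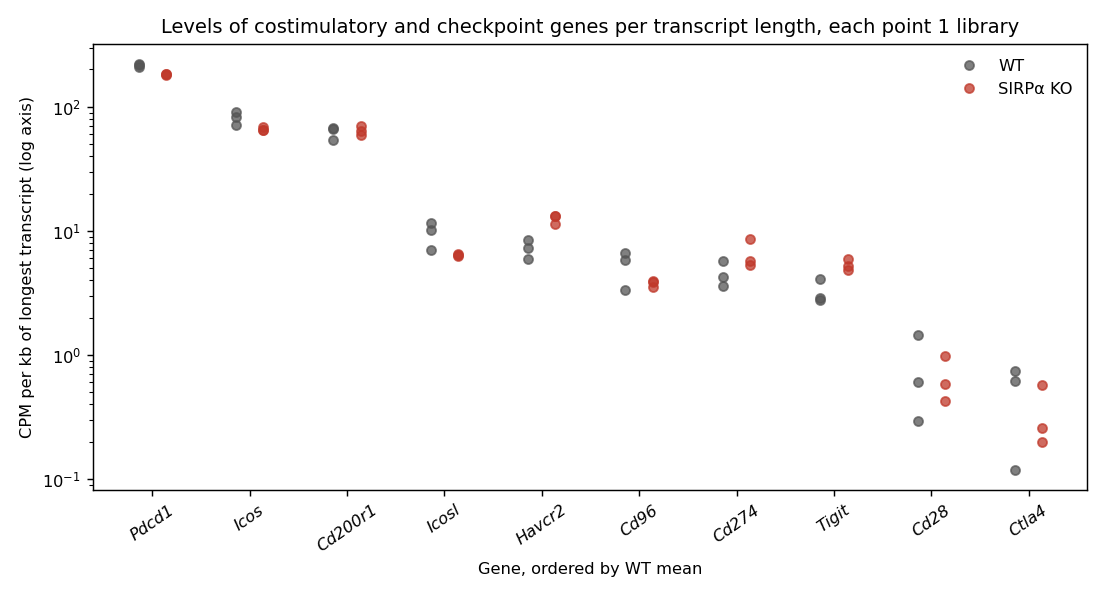
CPM per kilobase of the longest transcript (log axis) of the 10 genes, ordered by WT mean, each point 1 library. Pdcd1, Icos and Cd200r1 lie at 54.4 or above in every library, Cd28 and Ctla4 at 1.46 or below, and Havcr2 lies above Icosl in SIRPα KO.

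The genes around the 10 were read from lists of ligands and partners, other checkpoint and costimulatory receptors, and proximal signalling proteins. Of 62 listed genes, 53 were in the table and 45 were tested, and 4 were called (1 higher, 3 lower), which is 8.89% beside 11.7% of all genes. DESeq2 called 8 of the 53 list genes (4 higher, 4 lower), beside 26.9% of all genes with an adjusted p. The 53 include genes without an adjusted p in DESeq2, such as Btla. Without WT replicate 3, edgeR called 10 of 48 list genes tested (5 higher, 5 lower), beside 18.4% of all genes tested in that fit. The median log2 fold change of the 45 was -0.11. Of 10 ligands and partners tested, none was called by edgeR. DESeq2 called 1 of them, Hmgb1, and 3 had an unadjusted edgeR p under 0.05. Hmgb1, which encodes a nuclear protein that TIM-3 can bind, was the most abundant of them, at 408 to 427 CPM per kb in WT and 357 to 359 CPM per kb in SIRPα KO libraries (log2 fold change -0.23 ± 0.08, adjusted p = 0.0962).

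Other receptors gave 2 calls among 15 tested. Btla, an inhibitory receptor of the same immunoglobulin family that binds HVEM, rose. It had 3, 1 and 0 reads in WT and 48, 54 and 29 reads in SIRPα KO libraries, so it was at least 13.2-fold higher against a floor of 3 reads per WT library (adjusted p = 0.0178). Btla passed the low-count filter only through the SIRPα KO libraries, where it is high, so its call lends no support to the count above, and DESeq2 gave it no adjusted p. Cd2, an adhesion and costimulatory receptor of T and NK cells, fell from 1.96, 2.92 and 5.76 CPM to 0.575, 0.367 and 0.620 CPM (log2 fold change -2.75 ± 0.58, adjusted p = 0.0277). The summed T cell and NK and ILC1 markers above were lower in SIRPα KO libraries too, and their part in the Cd2 and Lck values was not tested. Of 20 proximal signalling genes, Dok2 and Lck fell. Lck, the Src-family kinase that acts at CD28 and at the T cell receptor, went from 9.09, 5.76 and 12.4 CPM to 1.21, 3.04 and 2.11 CPM (-2.09 ± 0.44, adjusted p = 0.0282). The SHIP-1 gene Inpp5d (0.63 ± 0.22, adjusted p = 0.102) and the SHP-1 gene Ptpn6 (0.36 ± 0.14, adjusted p = 0.121) had higher SIRPα KO values without overlap and were not called by edgeR, while DESeq2 called both. The Btla, Cd2, Dok2 and Lck calls were each lost without any 1 of the SIRPα KO libraries (adjusted p = 0.0835 to 0.136), and Lck also without WT replicate 1 (adjusted p = 0.0534). All 4 were lost when libraries with a shared label code were summed (adjusted p = 0.130 to 0.136).

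**Figure D4:**
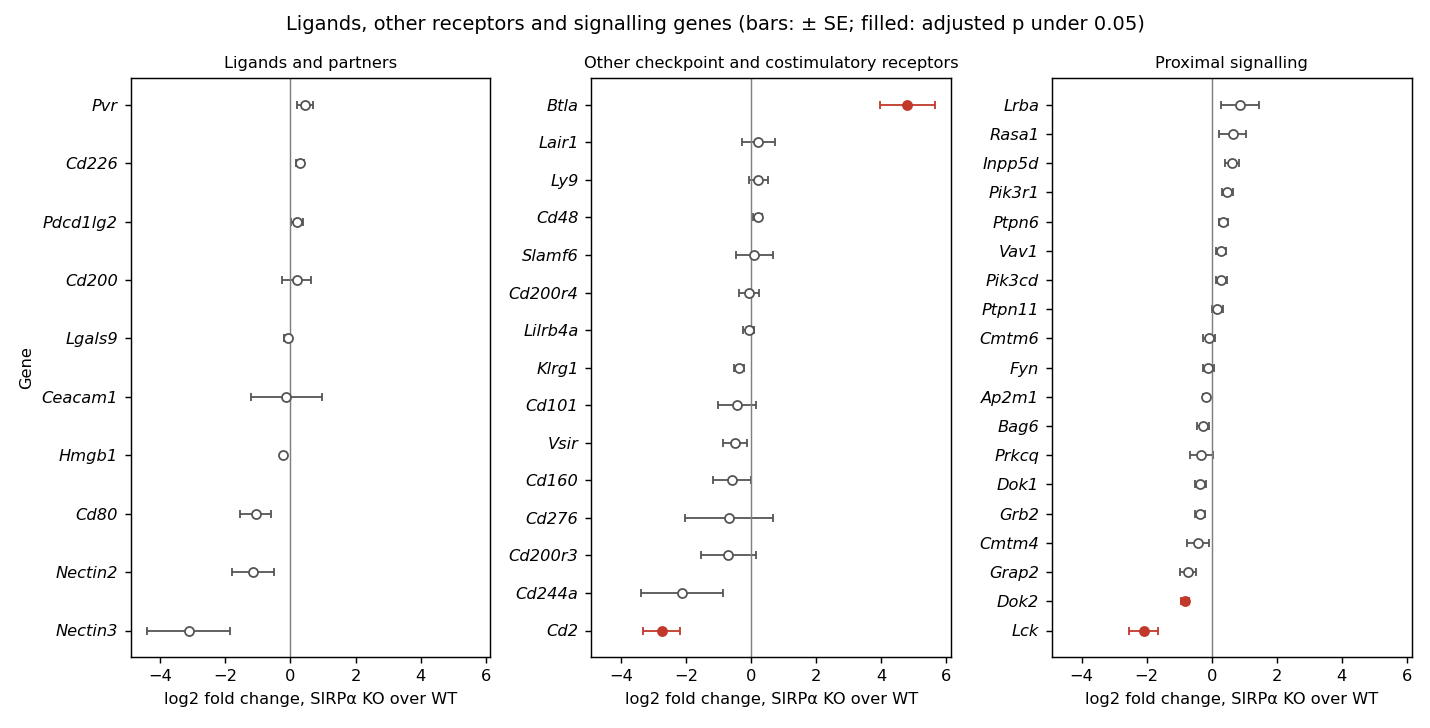
Log2 fold change, SIRPα KO over WT (x axis, ± SE), of the tested ligands and partners, other receptors and proximal signalling genes, apart from 1 gene not shown. Filled red points (Btla, Cd2, Dok2 and Lck) have an adjusted p under 0.05, and the plotted Btla value depends on the prior count, since its WT reads were at or under 3.

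For Havcr2, the gene with the smallest p of the 10, the most similar profiles over the 6 libraries were sought among the 9145 other genes at that expression limit (mean log2 CPM of 3 or more). The 5 nearest, by root mean square difference of centred log2 CPM, were Tango6 (0.044), Fam222b (0.053), Sec23b (0.060), Hacd3 (0.064) and Ggps1 (0.064). Tango6 was measured at 16.7, 13.1 and 10.7 CPM in WT and 24.7, 24.8 and 20.8 CPM in SIRPα KO libraries. Tango6 was chosen for its likeness to Havcr2, so the order they share within WT (replicate 1 highest, replicate 3 lowest) is no separate result. Within SIRPα KO the highest library was replicate 2 for Tango6 (24.8 CPM) and replicate 1 for Havcr2 (36.0 CPM).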

How the data were processed

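Bulk RNAseq covered cultured lung ILC2s of both genotypes (3 libraries each). The authors aligned reads to mm10 (STAR, GENCODE M21) in Partek and deposited an estimated count for each gene. The submitters' processing notes list Partek 10.0, STAR 2.7.8 and DESeq2, and the paper's methods name other versions. Strand use and the counting of shared reads are not given in the sources used here. The expected counts were rounded to whole numbers, and between 56.9% and 60.7% of a library's values were whole before rounding. Of the gene columns, 125 are recorded by name, and the 17706 others hold that unit too.

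Low counts were removed with edgeR 4.0.16's filterByExpr (10 reads, 15 in total). After TMM scaling, genotype was tested by quasi-likelihood, with p adjusted by Benjamini-Hochberg over 13623 genes, with a threshold of 0.05. R 4.3.3, DESeq2 1.42.0, Python 3.11.15, matplotlib 3.10.9 and BLAST+ 2.17.0 were used. The length and GC correction was an offset from 1 spline per property (5 degrees of freedom each). BLAST found no transcript of another gene matching over 50% of a named gene's length at 95% identity. The fit was tested on simulated data. Symbols matched GENCODE directly for 17400 genes, by synonym for 215, and 216 did not match. The floor of 3 reads and the depth cover counting error only.

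The 10 genes and the lists were chosen with earlier results of these data known. Named are the 10 genes, list genes with an adjusted p under 0.05, Sirpa, Cd47 and the 5 genes most like Havcr2. Other genes of the lists are named beside them and were chosen after their values were seen. Alternatives tried were DESeq2, RLE and upper quartile scaling, no filter and a stricter one, each library left out, a replicate block, libraries with a shared label code summed, and the length and GC correction. A signalling gene is counted in its list but is not reported here. Lag3, Vtcn1, Pvrig, Crtam, Havcr1, Timd2, Timd4, Btn1a1 and Btn2a2 were not analysed here.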

Additional observations from a re-analysis of the deposited data

How the results depend on the processing

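Of the 10 genes, Havcr2 kept a positive log2 fold change under all 14 alternatives (0.65 to 0.93, adjusted p 0.00094 to 0.160), and Icos, Icosl, Cd274, Tigit and Cd96 also kept their sign, as did Ctla4 under the 13 that gave it an adjusted p. With all libraries, 1600 genes, 1 of the 10 and 4 list genes were called. DESeq2 called 3214, 2 and 8 of these. Leaving out 1 library in turn gave 16 to 2606 genes, 0 to 5 of the 10 and 0 to 10 list genes (without a SIRPα KO library, 1 of the 10 had an unadjusted p under 0.05). The counts were lowest (16 or 17 genes) without 1 SIRPα KO library, when that group, the tighter of the pair, had 2 libraries left, and highest without WT replicate 3 (2606). Summing libraries of a shared label code called 10 genes and 0 of the 10 and of the list genes (1 and 10 at an unadjusted p under 0.05). Same-numbered WT and SIRPα KO libraries did not deviate together (correlations -0.042, 0.052 and 0.0075). The replicate block called 1118 genes and 0 of the 10 (3 at an unadjusted p under 0.05), with Havcr2 at 0.81 (edgeR adjusted p = 0.0520), and 3 list genes, with Cd2 at -2.65 (edgeR adjusted p = 0.0505). The length and GC correction called 2 of the 10. The upper quartile scaling shifted the median of all genes from -0.03 to -0.13 and the share of higher calls to 41.0% from 50.6%.

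Reversed values were Pdcd1 at 0.010 with the length and GC correction, Cd200r1 at -0.057 with upper quartile scaling and -0.17 with the correction, and Cd28 at 0.055 with codes summed. Leaving out 1 library moved Cd200r1 between -0.047 (WT replicate 3 out; also -0.024 with SIRPα KO replicate 2 out) and 0.099, and Cd28 between -0.63 and 0.55 (WT replicate 2 out; also 0.010 with SIRPα KO replicate 2 out). The cause of these reversals was not tested. Ctla4 had at most 21 reads in a library and Cd28 at most 89. The Havcr2, Dok2, Lck, Cd2 and Btla calls were each lost without any 1 of the SIRPα KO libraries, and Lck also without WT replicate 1 (edgeR adjusted p = 0.0534).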
